A study of Rattus norvegicus with 12 samples.

Results

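Circular RNAs (circRNAs) of the orbitofrontal cortex (OFC) were compared between rats that self-administered chocolate sucrose pellets and naive rats, using the 3 arrays labelled sucrose and the 3 labelled naive, which are 6 of the 12 arrays of the series. All 6 arrays came from adult male Sprague Dawley rats that were 8 weeks old on arrival and had no surgery, and each array is labelled as a sample of its own. The sucrose rats earned pellets in 2 h sessions on 10 days. The naive rats were handled and sat in the same chambers for 2 h a day over 10 sessions, with no program running. The other 6 arrays, 3 from rats that self-administered heroin and 3 from rats that self-administered saline in 6 h sessions after catheter surgery, entered only the normalization, the estimate of the spread and the comparisons in which they are named.

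A circRNA forms when a splice donor joins an acceptor upstream of it, in a backsplice that closes the exons between them into a ring. The ring has no free ends, so RNase R, an exonuclease that digests linear RNA, leaves it largely intact. The brain is rich in circRNAs, many of them from genes of the synapse. The OFC encodes the value of expected rewards, a natural reward such as sucrose included.

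Each array held 14145 circRNA probes, and each probe spans 1 backsplice junction. Levels are given as normalized log2 intensity, on which a difference of 1 is a 2-fold change. A circRNA was counted as past the study threshold when the group means differed by more than 1.5-fold and the unadjusted p of limma was below 0.05. Levels of different probes are not compared with each other. In tissue, fewer cells of a type and less RNA per cell cannot be told apart.

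The 6 arrays did not share 1 slide. Sucrose 1 and sucrose 2 lay on the slide of the heroin and saline arrays (slide 1), and sucrose 3 lay with the 3 naive arrays on another (slide 2). All 3 sucrose arrays were brighter before normalization, with a median intensity of 141, 137 and 124 against 70.1, 114 and 108 on naive 1, 2 and 3 (exact permutation p = 0.1, two-sided, the smallest that 3 against 3 arrays allow). The share of circRNA probes well above background was 98.2% to 98.5% on the sucrose arrays and 95.7% to 97.8% on the naive arrays (exact permutation p = 0.1). The 50 probes for linear transcripts differed from the circRNA probes in median log2 intensity by -3.13 to -3.60 on the sucrose arrays and by -3.14 to -3.57 on the naive arrays (exact permutation p = 0.9). Whether brightness or slide had a part in the differences below was not tested, and within-slide values stand beside the main results.

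Host genes are named for 75 circRNAs, the ones whose annotation was at hand. The study chose them, with others not used here, for their difference between its heroin and saline arrays, and the sucrose and naive arrays entered that choice only through the normalization and the filter over 12 arrays. They come from 57 named host genes, 56 are exonic, 15 overlap a gene in sense and 4 are intergenic. The 60-base junction probes below belong to the circRNAs on which the results turn. Capitals mark the longest run of at least 12 bases that a probe shares with another probe of the same host gene, and a probe with no such run is in lower case throughout. Coordinates follow the annotation of the probes, for which the sources used here name no genome build.

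For Grin2b, which encodes the GluN2B subunit of the NMDA glutamate receptor, the probes of 3 circRNAs share no such run. Of these, rno_circRNA_011734 spans chr4:233823875-234259073 on the minus strand and encloses the positions of the other two, rno_circRNA_011733 at chr4:234135667-234136096 and rno_circRNA_011731 at chr4:234015682-234016281.
rno_circRNA_011734: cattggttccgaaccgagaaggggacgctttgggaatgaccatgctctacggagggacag
rno_circRNA_011733: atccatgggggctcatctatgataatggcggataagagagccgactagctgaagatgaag
rno_circRNA_011731: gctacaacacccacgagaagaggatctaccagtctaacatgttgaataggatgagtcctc

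The probes for Slc24a2, a potassium-dependent sodium and calcium exchanger of neurons, lie across junctions at chr5:109334907-109389554 (rno_circRNA_012370, exonic) and chr5:109329444-109351378 (rno_circRNA_012366, sense overlapping), both on the minus strand. Slit1, a secreted axon guidance ligand for Robo receptors, has 1 probe, at chr1:268337164-268337547 on the minus strand.
rno_circRNA_012370: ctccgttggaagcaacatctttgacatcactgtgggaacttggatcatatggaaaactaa
rno_circRNA_012366: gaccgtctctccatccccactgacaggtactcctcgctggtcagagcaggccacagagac
rno_circRNA_001230: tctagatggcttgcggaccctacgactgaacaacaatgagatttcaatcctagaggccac

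The 3 Anks1b circRNAs below end at the same position, chr7:31468836 on the plus strand, and their probes share the sequence up to that end, while the bases past it differ with the start. The 2 Ube2cbp probes share one side of the junction in the same way, 44 bases in all. Readings of probes that share so much sequence are not independent of each other.
rno_circRNA_015168: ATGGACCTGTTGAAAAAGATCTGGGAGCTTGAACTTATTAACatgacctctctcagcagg
rno_circRNA_015171: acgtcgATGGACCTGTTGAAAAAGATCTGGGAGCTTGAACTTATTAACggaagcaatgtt
rno_circRNA_015172: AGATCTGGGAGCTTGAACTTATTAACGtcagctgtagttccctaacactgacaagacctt
rno_circRNA_016706: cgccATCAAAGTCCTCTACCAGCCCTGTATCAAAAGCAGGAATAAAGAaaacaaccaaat
rno_circRNA_016710: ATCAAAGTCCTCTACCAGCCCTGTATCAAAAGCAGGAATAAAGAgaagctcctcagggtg

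Every sucrose array was above every naive array for 6 of the 75 circRNAs (8%) and for 5.14% of all circRNAs tested. Every sucrose array was below for 1 of the 75 (1.33%) and for 8.22% of all tested. Of the 6, those past the study threshold were 1 Grin2b circRNA, 1 Slc24a2 circRNA and the Slit1 circRNA. Their group means were 1.55-fold to 2.02-fold higher after sucrose, and sucrose 3 was the highest of the sucrose arrays for each of them. Of the 75 circRNAs, 5 were higher and 2 were lower past the study threshold. Over all 13979 circRNAs tested, 383 were higher (2.74%) and 284 were lower (2.03%), together 4.77%. The 75 thus held 7 of 75, or 9.33%. An unadjusted p below 0.05 was seen for 9 of the 75 and for 1558 of all tested (11.1%). After Benjamini-Hochberg adjustment over all circRNAs tested, limma called 0 circRNAs at 0.05, with a smallest adjusted p of 0.0785, and the methods' t-test also called 0, with 981 at an unadjusted p below 0.05. None of the differences below passed that adjustment.

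The Grin2b rno_circRNA_011734 read 9.13, 8.60 and 9.35 on sucrose 1, 2 and 3, and 8.10, 7.65 and 8.29 on naive 1, 2 and 3. The lowest sucrose array was above the highest naive array. The group means differed by 1.02 log2 units (SE 0.25, 95% interval 0.47 to 1.56), a 2.02-fold difference with an unadjusted p of 0.00151 and an adjusted p of 0.323 in limma. It was also the only one of the 75 for which all 3 sucrose arrays lay above all 9 other arrays, the 3 saline arrays at 7.94 to 8.56 included. All 3 sucrose arrays lay above all 9 others for 116 of all circRNAs tested (0.83%). The heroin arrays read 7.51, 6.98 and 6.92, and this circRNA was chosen for its difference between heroin and saline. Its place above the heroin arrays was thus partly set by that choice, and the 0.83% is not a like comparison. It stayed past the study threshold in 21 of 21 alternatives of processing, test and arrays, with differences from 0.83 to 1.34.

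The second Grin2b circRNA, rno_circRNA_011733, read 8.32, 8.13 and 8.37 on the sucrose arrays and 7.97, 7.55 and 7.78 on the naive arrays. Its groups did not overlap either, and its difference of 0.51 (SE 0.20) was within 1.5-fold, so it was not past the threshold, though it was without naive 1 (0.61). The third, rno_circRNA_011731, which the study took to qPCR, read 9.97, 9.79 and 10.17 after sucrose and 9.99, 9.83 and 9.92 in naive rats. These values interleave, and the difference was 0.06 (95% interval -0.39 to 0.52). The 3 junctions of this receptor gene thus gave differences of 1.02, 0.51 and 0.06.

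The Slc24a2 rno_circRNA_012370 read 8.59, 8.96 and 9.48 on the sucrose arrays and 8.20, 8.41 and 8.54 on the naive arrays. Sucrose 1 lay just above naive 3, so the groups met without overlapping. The saline arrays read 8.72 to 8.79, above sucrose 1 and below sucrose 2 and 3. The difference was 0.63 (SE 0.20), or 1.55-fold, with an unadjusted p of 0.00775 and an adjusted p of 0.346 in limma. It was 0.39 without sucrose 3 and 0.53 without naive 1, both no longer past the threshold, and the methods' t-test did not place it past the threshold either.

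The other Slc24a2 circRNA, rno_circRNA_012366, read 11.65, 11.62 and 11.52 on the sucrose arrays and 10.50, 10.79 and 11.70 on the naive arrays. The sucrose arrays were close together and naive 3 was above all of them. The difference of 0.60 (SE 0.24) was just past 1.5-fold, and it stayed past the study threshold in only 7 of 21 alternatives. Without any 1 of sucrose 1, sucrose 2, naive 1 and naive 2 it was 0.57, 0.59, 0.35 and 0.50, and no longer past the threshold.

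The Slit1 rno_circRNA_001230 read 9.10, 8.55 and 9.30 on the sucrose arrays and 8.28, 8.10 and 8.47 on the naive arrays. Each sucrose array was above each naive array. The saline arrays read 9.17, 9.58 and 9.08, so the sucrose arrays lay among or below them. The difference was 0.70 (SE 0.25, 95% interval 0.17 to 1.24), or 1.63-fold, with an adjusted p of 0.379 in limma. It was 0.55 without sucrose 3 and 0.61 without naive 2, in both cases no longer past the threshold.

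**Figure D1:**
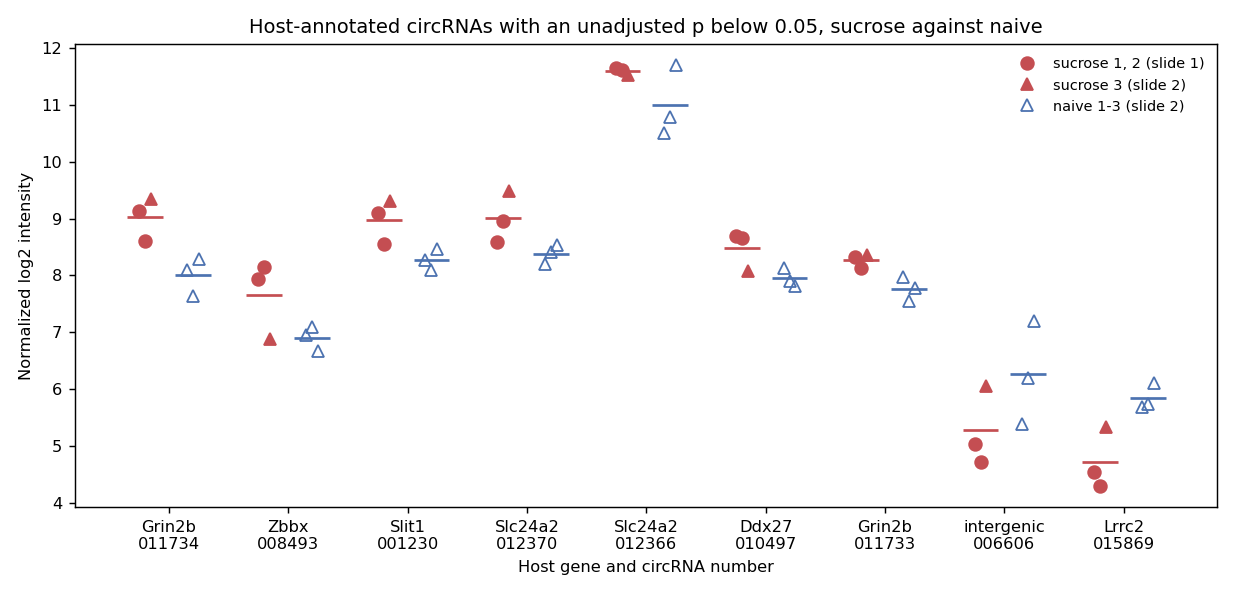
Normalized log2 intensity (y axis) of the 9 host-annotated circRNAs with an unadjusted p below 0.05 (x axis), with 3 sucrose arrays (filled) and 3 naive arrays (open), circles for slide 1, triangles for slide 2 and lines for group means. Grin2b rno_circRNA_011734 and rno_circRNA_011733, Slit1, Slc24a2 rno_circRNA_012370 and Lrrc2 have groups that do not overlap. Sucrose 3 lies among the naive arrays for Zbbx, Ddx27, Slc24a2 rno_circRNA_012366 and the intergenic circRNA.

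Zbbx, named for its zinc finger B-box domain, gave the fifth of the higher circRNAs, rno_circRNA_008493, and its sucrose arrays did not lie together. Sucrose 1 and 2 read 7.94 and 8.14, sucrose 3 read 6.89, and the naive arrays read 6.95, 7.09 and 6.67. Sucrose 3 was thus inside the naive range, at -0.01 from the naive mean, while the difference over the 3 arrays was 0.76 (SE 0.27). Without sucrose 1, sucrose 2 or naive 3 it was 0.61, 0.51 and 0.64, and no longer past the threshold. It was past the threshold in 13 of 21 alternatives, and not with the methods' t-test, the normexp background or slide as a random or fixed block. The Ddx27 rno_circRNA_010497, from an RNA helicase gene, had the same layout, with 8.69 and 8.65 on sucrose 1 and 2, 8.08 on sucrose 3, and 7.81 to 8.14 on the naive arrays. Its difference of 0.52 was within 1.5-fold, and it was past the threshold without sucrose 3 (0.72) or naive 1 (0.61).

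The 2 circRNAs that were lower past the threshold were rno_circRNA_015869 of Lrrc2, a leucine-rich repeat gene, at chr8:118579365-118594365 on the plus strand, and rno_circRNA_006606, which is intergenic, at chr17:50017215-50049380 on the plus strand. Lrrc2 read 4.54, 4.29 and 5.33 on the sucrose arrays and 5.68, 5.73 and 6.11 on the naive arrays, with no overlap. Its difference was -1.12 (SE 0.33), or 2.17-fold, with an adjusted p of 0.334 in limma, and -0.52 with the normexp background, not past the threshold. The intergenic circRNA read 5.04, 4.73 and 6.06 after sucrose and 5.39, 6.20 and 7.21 in naive rats, with overlap, and differed by -0.99 (SE 0.43). Without sucrose 1, sucrose 2, naive 2 or naive 3 the latter difference was -0.87, -0.71, -1.02 and -0.52, and no longer past the threshold. It was past the threshold in 9 of 21 alternatives, and not with the methods' t-test, the normexp background, 75th percentile scaling, the fits on 6 arrays or slide as a block. For both, sucrose 3 was the sucrose array closest to the naive arrays.

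Within slide 2, the difference could be read from sucrose 3 and the 3 naive arrays alone. This is the estimate that the fit gives with slide as a fixed block, and its error rests on the assumption that 1 array varies like the others. Over all circRNAs tested, 382 were higher (2.73%) and 474 lower (3.39%) past the study threshold, and limma called 0 at an adjusted p of 0.05 (1179 at an unadjusted p below 0.05). Of the 667 circRNAs past the threshold over all 3 sucrose arrays, 207 were also past it within slide 2 in the same direction, which is 31.0% of the 667 and 24.2% of the 856. Both counts use sucrose 3 and the same naive arrays, so they are not independent.

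Within slide 2, all 7 of the 75 circRNAs past the threshold were higher on sucrose 3, and 0 were lower. The spread in this fit, too, came partly from the heroin and saline arrays on which the 75 were chosen. The Grin2b rno_circRNA_011734 was 1.34 above the naive mean (SE 0.34, adjusted p = 0.510 in limma), against 0.85 for the mean of sucrose 1 and 2. Slc24a2 rno_circRNA_012370 was 1.10 above it on sucrose 3 (SE 0.20, adjusted p = 0.339), against 0.39, and Slit1 was 1.02 above it (SE 0.34, adjusted p = 0.539), against 0.55. For these 3 circRNAs every sucrose array lay above every naive array, so both slides lie on the same side of naive by definition. This is no check of the slide. Sucrose 3 was the highest sucrose array for each, so the difference was also larger within the slide than across slides.

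The remaining 4 of these 7 were higher on sucrose 3 and near the naive mean on sucrose 1 and 2. The Anks1b rno_circRNA_015171 and rno_circRNA_015168 were 0.81 and 0.60 above the naive mean on sucrose 3, and 0.01 and 0.07 above it on sucrose 1 and 2. The circRNA of Myh10, a nonmuscle myosin heavy chain, was 0.90 above it on sucrose 3 and 0.12 on sucrose 1 and 2. That of Eps15, an adaptor of endocytosis, was 0.72 above it on sucrose 3 and differed by -0.12 on sucrose 1 and 2. Myh10 and Eps15 were singled out after their values were seen.

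Lrrc2 differed from the naive mean by -0.51 on sucrose 3 (SE 0.42) and by -1.43 on sucrose 1 and 2, and the intergenic circRNA by -0.20 and -1.38. Neither was past the threshold within slide 2. Sucrose 3 lay above all 3 naive arrays for 26 of the 75 circRNAs (34.7%) and below all of them for 7 (9.33%). Over all circRNAs tested it lay above for 24.8% and below for 29.1%. These counts rest on sucrose 3 alone. The 26 include all circRNAs of Anks1b, some of whose probes share sequence, so they are not 26 separate readings.

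**Figure D2:**
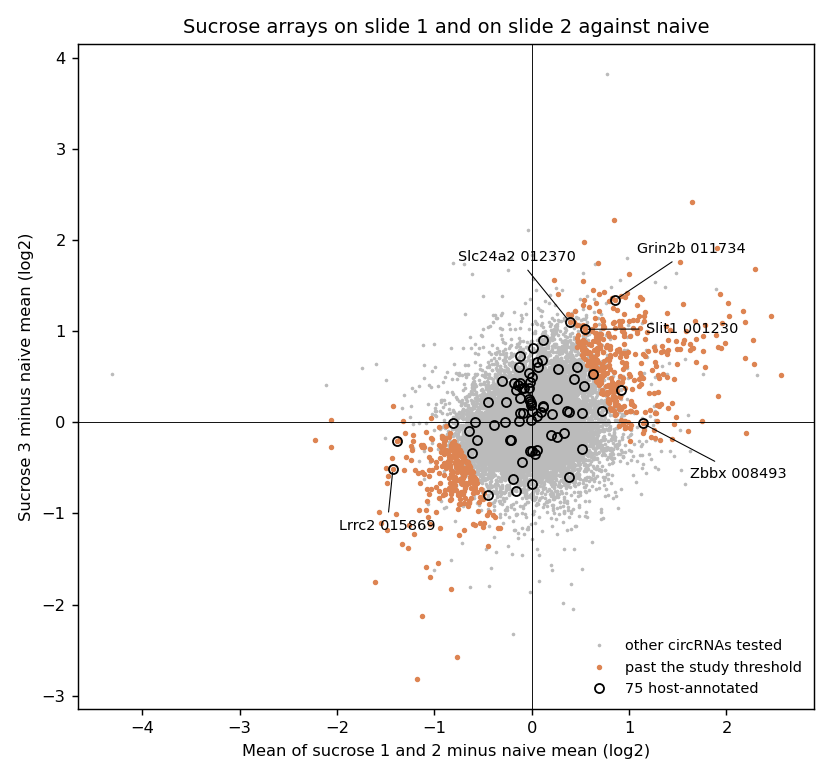
Mean of sucrose 1 and 2 minus the naive mean (x axis, log2) against sucrose 3 minus the naive mean (y axis, log2) for all 13979 circRNAs tested, with those past the study threshold in orange and the 75 host-annotated ones as open circles. Both axes hold the same naive mean, which by itself draws points along the diagonal, so only single circRNAs should be read from it: Grin2b, Slc24a2 and Slit1 are above 0 on both axes, and Zbbx is above 0 only on the x axis.

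By the role of the host gene, the circRNAs of glutamate receptors and synaptic scaffolds had 10 of 12 group means higher after sucrose, against 49 of the 75 and 48.4% of all circRNAs tested. Their median difference was 0.15, against 0.06 over the 75 and -0.01 over all tested. The 12 come from 5 host genes, and among the 5 of Anks1b and the 2 of Magi2 probes that end at the same position share 26 to 42 bases, so they are not 12 separate readings. One of the 12 was past the threshold, the Grin2b rno_circRNA_011734, against 4.77% of all circRNAs tested. The lowest of this list, and 1 of the 2 below 0, was the circRNA of Grik4, a kainate receptor subunit, at 7.43, 6.88 and 7.38 after sucrose and 6.92, 7.89 and 7.02 in naive rats, with a difference of -0.04.

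Among 5 circRNAs of Anks1b, a scaffold of the postsynaptic density, the differences were 0.06 to 0.28. Of these 5, 0 were past the threshold, against 4.77% of all circRNAs tested. For each of them sucrose 3 was above all 3 naive arrays, and at least 1 of sucrose 1 and 2 was inside their range. For example, rno_circRNA_015171 read 7.95, 7.45 and 8.50 on the sucrose arrays and 7.76, 7.89 and 7.42 on the naive arrays. The 2 circRNAs of Magi2, another synaptic scaffold, differed by 0.10 and -0.03.

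Of 4 circRNAs of ion and solute transporters, the 2 of Slc24a2 were past the threshold and 2 were not, against 4.77% past it over all tested. The circRNA of Slc35e2b was the lowest of that list, with a difference of -0.57 (SE 0.32), and read 9.47, 10.37 and 9.57 after sucrose against 9.77, 10.19 and 11.15 in naive rats. The groups overlap there, and naive 3 is the highest. Among 5 circRNAs of axon guidance, adhesion and secreted proteins, Slit1 was past the threshold and the lowest was Thsd7b, with thrombospondin type 1 domains, at -0.52 (SE 0.25). Thsd7b was past the threshold without sucrose 2 (-0.66), sucrose 3 (-0.61) or naive 3 (-0.72), and Slc35e2b without sucrose 2 (-0.85) or naive 1 (-0.87).

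The 7 circRNAs of signalling enzymes and kinases, the 9 of vesicle and membrane traffic and the 9 of the ubiquitin system held 0 past the threshold, in either direction. Over all circRNAs tested 4.77% were past it, so 0 in lists of this size is near that share. The differences in these lists ran from -0.23 to 0.38, from -0.44 to 0.26 and from -0.27 to 0.29. The highest and lowest of each were Adcy5 (an adenylyl cyclase, which makes cAMP) and Stk39 (a kinase), Stx3 (a syntaxin of membrane fusion) and Tbc1d5 (a regulator of Rab GTPases), and Usp9x (a deubiquitinase) and March1 (a ubiquitin ligase). Tbc1d5 was past the threshold without naive 3 (-0.68).

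Among 7 circRNAs of RNA, DNA and chromatin genes the median was 0.29 and 0 were past the threshold, against 4.77% of all circRNAs tested. The highest was the circRNA of Zbtb8b, a zinc finger gene, which read 11.50, 11.16 and 10.77 after sucrose and 10.98, 10.70 and 9.54 in naive rats and differed by 0.73 (SE 0.38, unadjusted p = 0.0804 in limma). The lowest was that of Dna2, a nuclease and helicase, at -0.46 (SE 0.25). Each was past the threshold in 1 set of 5 arrays, Zbtb8b without naive 1 (1.02) and Dna2 without sucrose 3 (-0.64). The 12 circRNAs of cytoskeleton, glycosylation and other enzymes held 1 higher (Zbbx) and 1 lower (Lrrc2), against 2.74% and 2.03% of all tested.

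**Figure D3:**
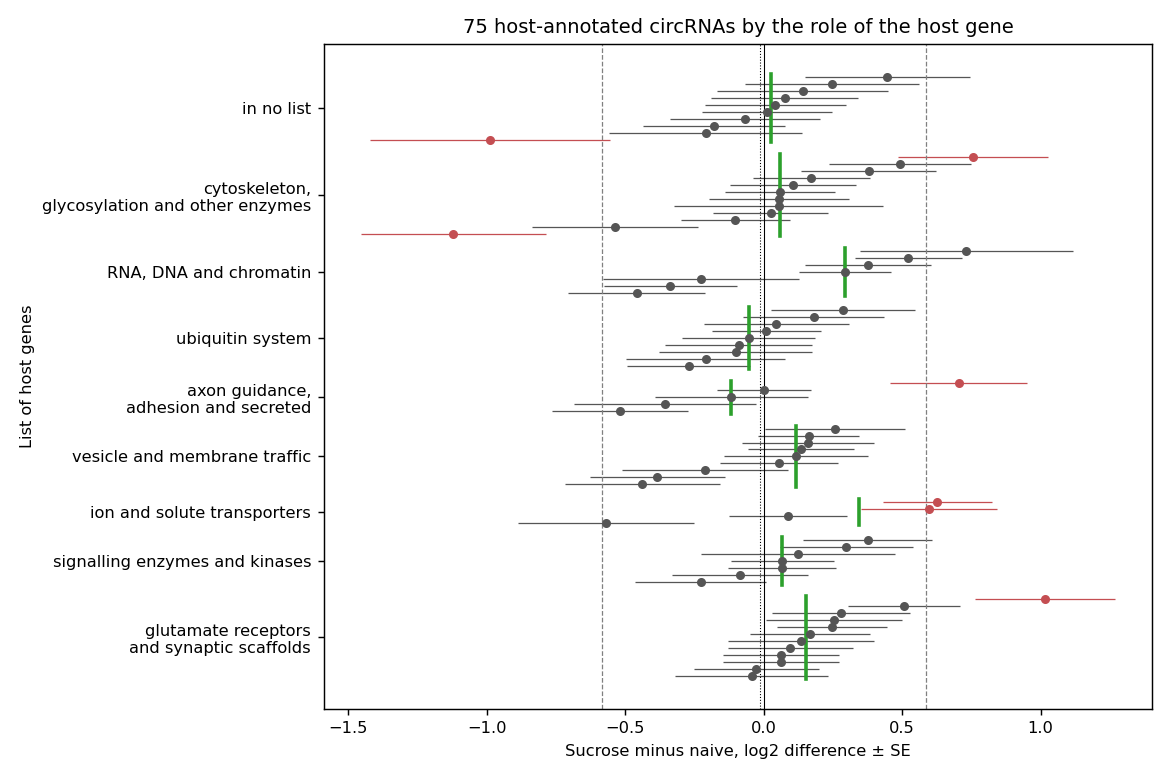
Sucrose minus naive log2 difference (x axis) with its SE for the 75 host-annotated circRNAs, grouped by the role of the host gene (y axis), with those past the study threshold in red, the median of each list in green, the 1.5-fold limits dashed and the median over all circRNAs tested dotted. In the synaptic list, which holds 5 circRNAs of Anks1b and 2 of Magi2, 10 of 12 points are above 0, against 49 of all 75 points, and the 7 red points are Grin2b, 2 of Slc24a2, Slit1, Zbbx, Lrrc2 and an intergenic circRNA.

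Of 42 circRNAs that were lower in heroin than in saline rats in the same fit, 28 had a higher mean after sucrose than in naive rats and 14 a lower one, with 5 higher and 0 lower past the threshold and a median difference of 0.14. Their median log2 level over the 12 arrays was 9.24. Of 33 that were higher in heroin than in saline rats, 21 had a higher and 12 a lower mean after sucrose, with 0 higher and 2 lower past the threshold, a median of 0.04 and a median level of 7.20. Over all circRNAs tested 48.4% had a higher mean after sucrose, and the split of calls by direction also moved with the level, as given below for the dimmest and the brightest circRNAs. The heroin and saline arrays are not part of the sucrose against naive difference, but they entered the estimate of its spread.

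Of the 10 circRNAs that the study took to qPCR, Slc24a2 and Slit1 were past the threshold here and 8 were not. Over all circRNAs tested 4.77% were past it. The Ube2cbp rno_circRNA_016706, from a gene for a ubiquitin ligase, at chr8:93582945-93586349 on the minus strand, read 9.82, 8.68 and 8.86 on the sucrose arrays and 8.91, 9.43 and 9.29 on the naive arrays. Sucrose 1 was the highest of the 6 arrays and sucrose 2 the lowest. The difference was -0.09 (95% interval -0.67 to 0.49). For rno_circRNA_016710, whose probe shares 44 bases with it, the values were 9.44, 8.22 and 8.51 against 8.46, 8.99 and 9.01, and rno_circRNA_016712 differed by 0.18 (SE 0.26).

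The circRNA of Adcy5 read 7.75, 7.38 and 7.15 on the sucrose arrays and 6.94, 6.78 and 7.44 on the naive arrays, and differed by 0.38 (95% interval -0.13 to 0.88). The groups overlap through naive 3. The circRNA of Anks1a, an adaptor with ankyrin repeats, read 7.10, 6.75 and 6.98 against 6.96, 6.51 and 6.95, and differed by 0.14 (95% interval -0.43 to 0.71).

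For the circRNA of Cnot6l, a subunit of the deadenylase that shortens mRNA tails, the values were 11.04, 12.03 and 10.86 after sucrose and 11.88, 11.83 and 10.91 in naive rats, a difference of -0.23 (95% interval -0.99 to 0.54). Lmtk2, a membrane kinase, had the widest naive values of these 10, from 10.57 to 12.27, around sucrose values of 11.19, 11.81 and 11.08. Its difference was 0.12 (95% interval -0.64 to 0.89), so a 1.5-fold change in either direction lies within the interval. Without naive 3 it was 0.64 and past the threshold.

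Rtn4, the gene of the neurite growth inhibitor Nogo, gave differences of 0.16 for rno_circRNA_004644 and 0.13 for mmu_circRNA_23123. On rno_circRNA_004644, sucrose 3 read 8.93 and was above the other 5 arrays, which read 8.30 to 8.55. The circRNA of Prex2, an exchange factor for the GTPase Rac, differed by -0.08 (SE 0.25). The circRNAs of Exoc6, a subunit of the exocyst, differed by -0.38 and 0.05, and those of the kinase gene Map4k5 by 0.07 and 0.07.

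The correlation between arrays, across circRNAs, which are not independent, was 0.967 to 0.976 within sucrose, 0.972 to 0.981 within naive and 0.957 to 0.978 between them. Sucrose 1 and 2 correlated at 0.976 with each other. Sucrose 3 correlated at 0.967 and 0.968 with sucrose 1 and 2, and at 0.969, 0.976 and 0.978 with naive 1, 2 and 3. It was thus closer to each naive array, on its own slide, than to the other sucrose arrays, though barely so for naive 1. Across slides, sucrose 1 and 2 correlated at 0.957 and 0.966 with naive 1, and at 0.963 and 0.968 with naive 2. With naive 3 they correlated at 0.976 and 0.976, as high as with each other, so the arrays did not simply group by slide. The median SD of a circRNA was 0.261 over the 3 sucrose arrays, 0.181 over sucrose 1 and 2 and 0.211 over the naive arrays. The mean absolute difference from the naive mean was 0.373 on sucrose 1, 0.323 on sucrose 2 and 0.295 on sucrose 3, so the array on the slide of the naive arrays was the nearest to them.

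Over all circRNAs tested, the 383 that were higher had a median fold of 1.69 and a maximum of 4.26, and 92 of them exceeded 2-fold. The 284 that were lower had a median of 1.62 and a maximum of 3.30, with 31 above 2-fold. All 3 sucrose arrays lay above all 3 naive arrays for 718 circRNAs (5.14%) and below them for 1149 (8.22%). Of the 75, 6 lay above (8%) and 1 below (1.33%). When the circRNAs were ranked by signal and divided into 4 sets of about equal size, 7.35% of the dimmest set were past the threshold and 3.63% to 4.26% of the others. The dimmest set held 135 higher and 122 lower, the next 72 and 77, the next 74 and 53, and the brightest 102 and 32.

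The whole series gives the place of both groups among the 12 arrays. The 3 naive arrays lay above all 9 other arrays for 323 circRNAs (2.31%) and below them for 182 (1.3%). The 3 sucrose arrays lay above all 9 others for 116 and below them for 99 (0.708%). Of the 383 higher circRNAs, 41 had the sucrose arrays above all others and 50 had the naive arrays below all others. Of the 284 lower circRNAs, 16 had the sucrose arrays below all others and 79 the naive arrays above all others. The naive arrays share slide 2 with sucrose 3 alone, so a naive group apart from all others and a difference between slides cannot be told apart except through sucrose 3.

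Of the circRNAs past the threshold that were well above background on all 6 arrays, without overlap and with sucrose 3 more than 1.5-fold from the naive mean, 117 were higher and 93 were lower. Their host genes are not named in the tables used here. The largest difference among the 117 was that of ASCRPR005270, at 11.58, 11.59 and 10.30 on the sucrose arrays and 8.95, 8.45 and 9.99 on the naive arrays, 4.08-fold (adjusted p = 0.274 in limma). Its difference of 2.03 was 1.17 within slide 2 (SE 0.51) and 2.46 for sucrose 1 and 2. ASCRPR008249 followed, at 9.93, 10.06 and 9.04 against 7.41, 7.11 and 8.97, 3.60-fold. Its difference of 1.85 was 1.22 within slide 2 (SE 0.59), where it was not past the threshold. In both, the naive arrays were below all 9 others, and sucrose 3 and naive 3 were the arrays closest to the other group.

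The largest differences among the 93 were those of ASCRPR000867 and ASCRPR004235. ASCRPR000867 read 3.79, 4.14 and 4.26 on the sucrose arrays and 5.55, 5.55 and 5.24 on the naive arrays, 2.61-fold (adjusted p = 0.274 in limma), and the naive arrays were again apart from all 9 others. Its difference of -1.38 was -0.77 in the deposited values and -0.46 with the normexp background, where it was not past the threshold. Within slide 2 it was -1.18 (SE 0.37). ASCRPR004235 read 4.15, 6.66 and 5.99 against 7.21, 6.87 and 6.84, 2.59-fold, with sucrose 1 far below the other 5 arrays. Its difference of -1.38 was -0.65 without sucrose 1. Within slide 2 it was -0.99 (SE 0.68), not past the threshold, and the methods' t-test did not place it past the threshold either.

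**Figure D4:**
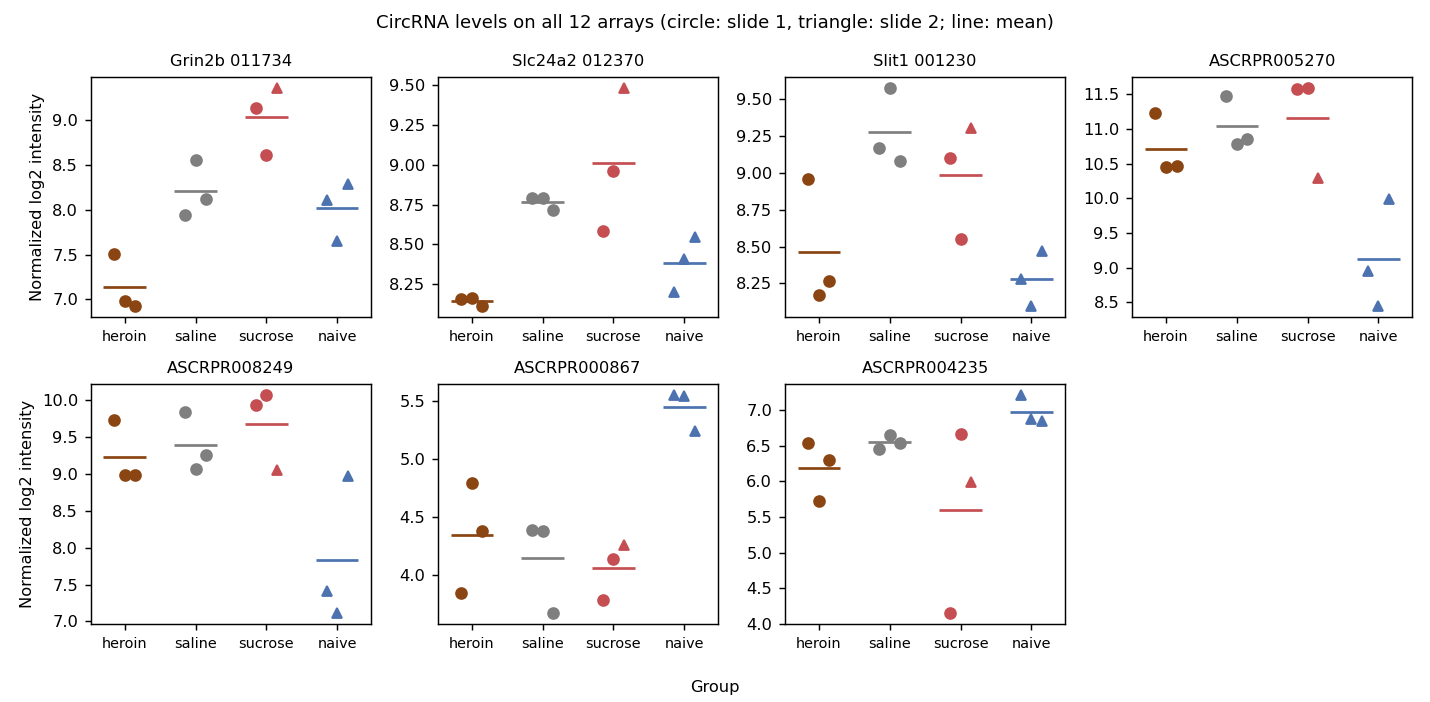
Normalized log2 intensity (y axis) on all 12 arrays by group (x axis) for 3 host-annotated circRNAs and the 4 probes with the largest changes, with circles for slide 1, triangles for slide 2 and lines for group means. The sucrose arrays are above all others for Grin2b rno_circRNA_011734, and the naive arrays are apart from all others for the 4 unnamed probes.

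Detection was one-sided. On all 3 sucrose arrays and on none of the 3 naive arrays, 21 circRNAs were well above background, and 0 had the opposite pattern. These are among the dimmest probes, and the sucrose arrays were the brighter ones, as given above. A lower limit above 1-fold could be set for 18 of the 21, and for 3 no fold can be given. The measured groups overlapped for 8 of the 18, and 10 of the 18 had an unadjusted p below 0.05 in limma. A limit thus does not by itself show a difference. Over all circRNAs tested, 11.1% had such a p, and 5.14% had every sucrose array above every naive array. The 18 were chosen by their detection on the same sucrose and naive arrays, which selects for higher sucrose values. Their overlap and p-values are therefore no separate test of a difference. The 2 highest limits, computed on the subtracted scanner intensities, were at least 1.58-fold (mean log2 of 3.09 after sucrose, measured naive mean 1.62, adjusted p = 0.274 in limma) and at least 1.57-fold (3.12 and 2.47, adjusted p = 0.383). In the deposited values these 2 circRNAs differed by 0.26 and 0.14 on the log2 scale, with the normexp background by 0.12 and 0.06, and neither was past the threshold in either. Within slide 2 they differed by 1.29 and 0.28, and the second was no longer past the threshold there or without sucrose 1 (0.41), naive 2 (0.53) or naive 3 (0.57). The limit sets the sucrose mean against the dimmest signal called well above background on each naive array.

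All 75 host-annotated circRNAs were well above background on all 6 arrays. The genes listed as neuronal were taken from among these host genes, so they give no separate check of the tissue. The markers of astrocytes, oligodendrocytes, microglia and vessels were named by no probe used here, so their share in the tissue samples was not measured.

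The counts depended on the values used, as the plot by setting shows. With the deposited log2 values, 285 circRNAs were past the threshold, 195 higher and 90 lower, so 68.4% were higher where the scanner intensities gave 57.4%. Grin2b rno_circRNA_011734, Slc24a2 rno_circRNA_012370, Slit1, Zbbx and Lrrc2 differed there by 0.94, 0.67, 0.66, 0.66 and -0.80. The intergenic rno_circRNA_006606 differed by -0.69 and was past the threshold as well. Slc24a2 rno_circRNA_012366 differed by 0.575, which was within 1.5-fold, so it was not past the threshold there. Of the single arrays, sucrose 3 and naive 3 moved the count most: it was 1327 without sucrose 3 and 1272 without naive 3.

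**Figure D5:**
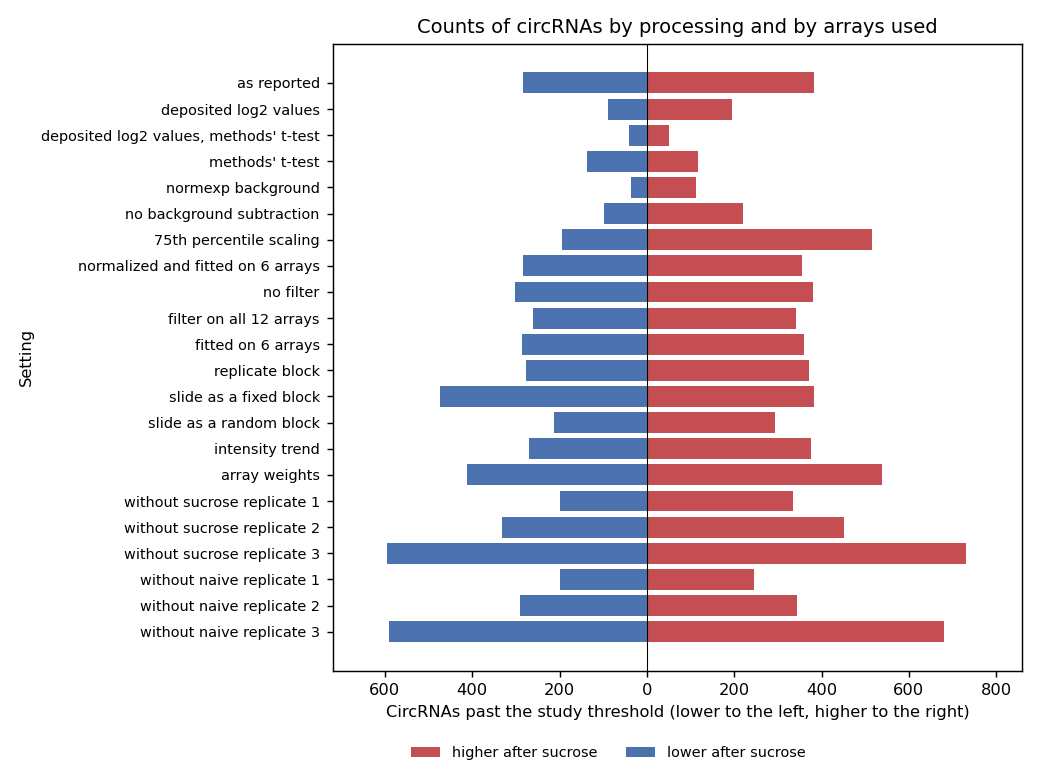
Number of circRNAs past the study threshold (x axis, lower to the left and higher to the right of 0) as reported and under each of 21 alternatives (y axis). The counts run from 92 with the deposited values and the methods' t-test to 1327 without sucrose replicate 3.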

How the data were processed

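OFC RNA of male rats was digested with RNase R, labelled with Cy3 and hybridized to 1-colour circRNA arrays. The labels give 12 arrays as 12 samples, with tissue taken from each animal, whereas the study's methods name fewer samples. For every array the authors deposited the scanner output of Agilent Feature Extraction (version 11.0.1.1), with the intensity of 15701 spots. They also deposited 1 log2 value per circRNA and array, quantile-normalized with limma. Medians of these deposited log2 columns were 7.02 to 7.03, and they followed the unsubtracted log2 intensity (r = 0.999 to 1.00 across probes) more closely than the subtracted one (0.978 to 0.983). No source used here says whether background was subtracted.

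The subtracted intensities were taken to log2 without 9 outlier spots and quantile-normalized across all 12 arrays. A circRNA was tested where at least 3 of 12 arrays flagged it well above background, which kept 13979 of 14145. Group means of the 4 groups were fitted in limma (version 3.58.1, under R version 4.3.3) with a common variance estimate, and p-values were adjusted by the Benjamini-Hochberg method. The normalization, the 3 of 12 rule and the threshold follow the study's methods, and their t-test served for comparison. Simulated data with known changes were used to test the script. The number of arrays, 3 a group, limits the precision. Slide was read from the scanner output. Other alternatives were the background correction (normexp on the median signal), scaling, filters, arrays fitted, blocks, variance options, the deposited values and each array left out.

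Named circRNAs are the 10 taken to qPCR, those of the 75 with an unadjusted p below 0.05, the highest and lowest of each role list, all circRNAs of host genes with several, and the largest changes that met the criteria given. The members, lists and rules were chosen with earlier results of these data known. Host genes, positions and probe sequences of 75 circRNAs come from the study's annotation table, whose fold changes and p-values were not used.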

Additional observations from a re-analysis of the deposited data

How the results depend on the processing

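The count past the study threshold (667) was 285 with the deposited log2 values, 92 with these and the methods' t-test, 254 with the methods' t-test, 149 with the normexp background and 319 with no background subtraction; the cause was not tested. The count at an unadjusted p below 0.05 (1558) was 974 with the deposited values and the methods' t-test and 981 with the methods' t-test. At an adjusted p below 0.05 (0 circRNAs), limma called 3 with the deposited values, 2 with normexp, 1 with no background subtraction and 1 with an intensity trend. The share of called circRNAs that were higher (57.4%) was 72.6% with 75th percentile scaling, 75.8% with normexp, 69.3% with no background subtraction, 68.4% with the deposited values, 46.1% with the methods' t-test and 44.6% with slide as a fixed block. Of the 75, 7 were past the threshold, and 3 with the methods' t-test, on either the scanner or the deposited values, 3 with normexp and 4 with slide as a random block. Leaving out 1 array gave 444 to 1327 past the threshold, 874 to 2602 at an unadjusted p below 0.05, 0 to 11 at an adjusted p below 0.05, 4 to 13 of the 75, and a median over the 75 of -0.0074 to 0.15. The extremes were without naive 1 (444 and 874), without sucrose 3 (1327, 2602, 11 and -0.0074), without naive 3 (13 of the 75; 1272 past the threshold) and without sucrose 2 (0.15); without sucrose 1, 1003 had an unadjusted p below 0.05 and 4 of the 75 were past the threshold, and without naive 2 also 4. With slide as a fixed block, rno_circRNA_008493 of Zbbx reversed, to -0.012 from 0.76. Of 34 named circRNAs not past the threshold, 18 changed sign under at least 1 of 21 alternatives.

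The replicate numbers do not pair the samples: deviations of same-numbered sucrose and naive arrays from their group means correlated at -0.13, -0.08 and -0.14 across circRNAs. With a replicate block, 649 circRNAs were past the threshold, 1342 had an unadjusted p below 0.05, 0 passed the adjustment, and 7 of the 75 were past the threshold with a median of 0.06.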
